A study of Mus musculus with 12 samples.

Results

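The IFIT and Mx genes are 2 small families of interferon-induced antiviral genes, and 6 of them were followed here: Ifit1, Ifit2, Ifit3, Ifit3b, Mx1 and Mx2. They were chosen by name, as 6 of the 27179 mouse genes in the count table, with earlier results of these data known in which interferon-induced genes were higher after doxycycline. The comparison of doxycycline with control, and the interaction that contains it, are therefore described without a test. All 6 genes passed the filter on low counts and were among the 12910 genes tested.

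RNA was measured in MC38-idAdpgkG, a derivative of the C57BL/6 mouse colon carcinoma line MC38 that carries a construct for the mutant metabolic enzyme Adpgk(R304M) fused to turboGFP. Doxycycline switches the construct on, and dTAG-13 is a degrader, a small molecule that directs tagged proteins to the ubiquitin ligase cereblon for destruction. Every group, the control included, received mouse interferon-gamma at 20 ng/mL, so no group shows these genes without interferon. The control group had no other agent over its 51 h. The doxycycline group was given doxycycline, at 1 µg/mL, alongside interferon-gamma over the same 51 h. The dTAG-13 group had interferon-gamma for 48 h and then 1 µM dTAG-13 for the last 3 h. The doxycycline plus dTAG-13 group had interferon-gamma and doxycycline for 48 h and then dTAG-13 for 3 h. There were 12 libraries, 3 per group, and the 3 were technical replicates of 1 biological sample. Their spread, and every p-value below, therefore measures differences between libraries of single cultures and not between independent cultures. All cells came from 1 engineered line, and doxycycline itself and the construct it switches on cannot be told apart. Nor can dTAG-13 and the listed time of interferon-gamma, which was 48 h in the groups with dTAG-13 and 51 h in the others.

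IFIT proteins are built of tetratricopeptide repeats. IFIT1 binds viral RNA, above all RNA whose cap lacks the methylation found on the cell's own messengers. Mx proteins are dynamin-like GTPases that assemble on viral nucleocapsids. Type I interferon induces both families through ISGF3, a transcription factor complex that contains STAT2 and IRF9 and binds the interferon-stimulated response element. Interferon-gamma acts mainly through gamma-activated sites and through IRF1. C57BL/6 and most other laboratory strains carry disrupted Mx genes, so the Mx1 and Mx2 values below are transcript levels of genes without a functional protein.

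The 4 IFIT genes lie side by side on the plus strand of chromosome 19 (GRCm38.p6, RefSeq). Ifit2 spans chr19:34550550-34576534, Ifit3 chr19:34583119-34588982, Ifit3b chr19:34607530-34613403 and Ifit1 chr19:34640889-34650009. Mx1 spans chr16:97447035-97462906 on the minus strand and Mx2 chr16:97536081-97560901 on the plus strand, and RefSeq annotates both as transcribed pseudogenes. Promoter windows from RefSeq matched Ifit1, Ifit2, Ifit3 and Ifit3b, 4 of the 6 genes. No window was available for Mx1 or Mx2. A link between the windows and the values across the groups was not tested. Capitals mark matches on either strand to the core of the interferon-stimulated response element or to the gamma-activated site. All 4 are on the plus strand, and each stretch is from the 250 bases before the annotated start that its promoter window uses. For Ifit2, Ifit3 and Ifit3b that start lies inside the gene span given above, whose first base is farther upstream. For Ifit1 the stretch is cut at both ends by annotated exons, which hold 123 of the 250 bases. The 127 bases shown cover positions -145 to -19.
Ifit1, chr19:34640744-34640870: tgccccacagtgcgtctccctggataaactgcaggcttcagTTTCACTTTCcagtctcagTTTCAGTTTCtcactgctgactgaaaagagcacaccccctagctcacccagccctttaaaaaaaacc
Ifit3, chr19:34583279-34583528: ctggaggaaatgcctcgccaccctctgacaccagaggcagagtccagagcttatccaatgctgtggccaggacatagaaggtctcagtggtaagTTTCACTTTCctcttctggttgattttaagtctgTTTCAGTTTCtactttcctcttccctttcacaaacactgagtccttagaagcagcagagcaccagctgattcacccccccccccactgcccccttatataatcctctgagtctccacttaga
Ifit3b, chr19:34607707-34607956: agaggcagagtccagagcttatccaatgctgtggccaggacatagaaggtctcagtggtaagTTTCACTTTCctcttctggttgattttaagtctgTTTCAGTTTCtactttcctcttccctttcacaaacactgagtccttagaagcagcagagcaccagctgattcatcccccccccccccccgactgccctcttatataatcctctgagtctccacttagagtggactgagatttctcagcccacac
Ifit2 (first of 2 annotated starts), chr19:34550444-34550693: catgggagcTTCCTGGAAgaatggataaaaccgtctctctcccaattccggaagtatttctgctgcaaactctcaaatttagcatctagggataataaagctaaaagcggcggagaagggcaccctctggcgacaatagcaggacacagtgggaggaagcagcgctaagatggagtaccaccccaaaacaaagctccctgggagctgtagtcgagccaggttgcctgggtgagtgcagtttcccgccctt

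Ifit1, Ifit3 and Ifit3b each held 2 matches to the response element core, and in all 3 genes the pair was TTTCACTTTC followed by TTTCAGTTTC, the element read on the other strand. The Ifit3b stretch is a near copy of the Ifit3 stretch, shifted against the annotated start, so their pairs are not separate cases. Counted back from the annotated start, the Ifit1 matches covered positions -104 to -95 and -85 to -76. The Ifit3 matches covered -156 to -147 and -122 to -113. The 250-base windows of the 2 Ifit2 starts held no such match, and the first held 1 gamma-activated site, at -241 to -233. No match to one motif overlapped a match to the other in these windows. Over all 32851 promoter windows of the same length, 2.98% held the response element core and 7.02% the gamma-activated site. A match says only that these letters are present, and no match says only that they are not in this window.

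**Figure D1:**
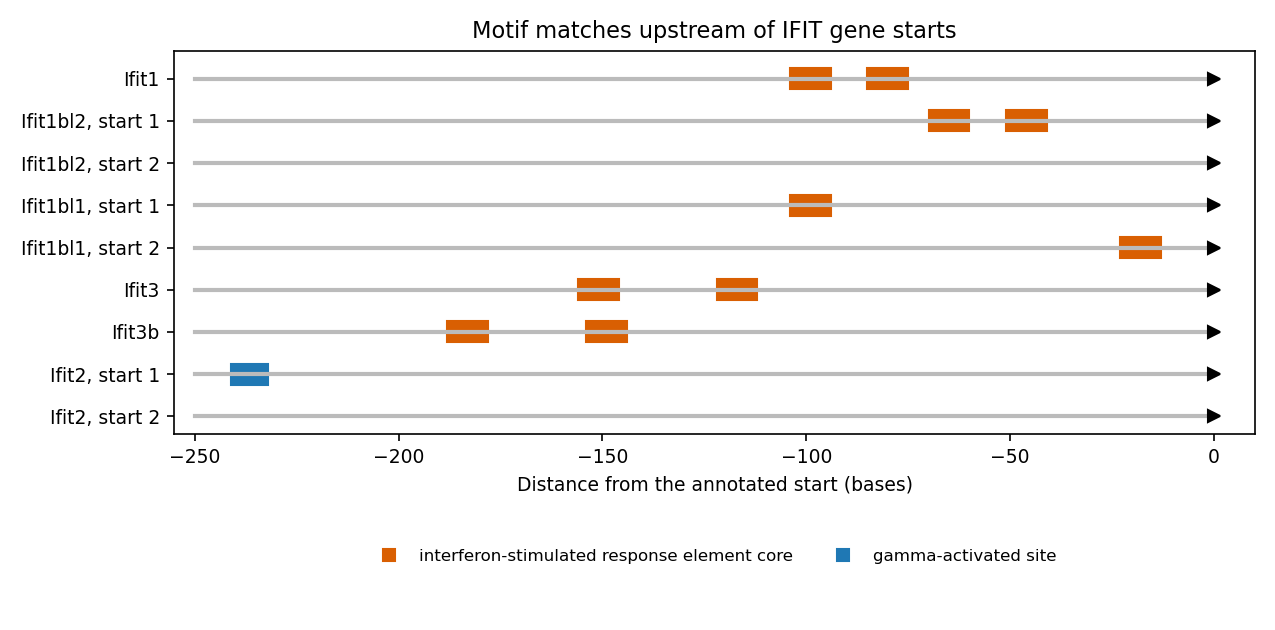
Positions of motif matches in the 250 bases before each annotated start of the IFIT genes and of their neighbours Ifit1bl1 and Ifit1bl2; the x axis is the distance from the start in bases, orange boxes are matches to the interferon-stimulated response element core and the blue box is a gamma-activated site. Ifit1, Ifit3 and Ifit3b carry 2 orange boxes each, and the 2 starts of Ifit2 carry none.

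The libraries held 22165538 to 32809573 counted reads. Adpgk reads checked the labels: 161 ± 2.49 CPM (read counts scaled to library size; SD, n = 3) in control and 181 ± 4.18 with dTAG-13, against 1338 ± 20.1 with doxycycline and 1369 ± 15.7 with both. Reads of the construct and of the cell's own Adpgk are not separated, and degradation of the protein does not show in RNA. Of 8 epithelial markers, Epcam and Cdx2 had no read in any library and the 8 together summed to 0.0628 to 0.712 CPM, so the colon carcinoma label is not borne out by epithelial transcripts. The 6 fibroblast-type markers, all detected, summed to 1160 to 1190 CPM in control and 1420 to 1460 CPM with doxycycline, and to 1100 to 1130 CPM with dTAG-13 and 1180 to 1210 CPM with both. Col3a1 carried most of that sum, and Col1a1 and Col1a2 were near 0. Without Col3a1 the other 5 summed to 320 to 339 CPM in control and 335 to 351 CPM with doxycycline, but to 353 to 361 CPM with dTAG-13 and 299 to 316 CPM with both. Of the 4 tested with dTAG-13 present, doxycycline gave 2 called higher and 1 lower, against 10.7% and 9.64% of all tested genes. The part of these markers in the IFIT and Mx values was not tested. The 6 leukocyte markers, with no Cd3e read, summed to 0.837 to 1.1 CPM in control, 0.971 to 1.17 CPM with doxycycline, 1.16 to 1.51 CPM with dTAG-13 and 1.66 to 1.96 CPM with both. The 4 endothelial markers summed to 3.29 to 3.51, 3.07 to 3.66, 3.47 to 4.18 and 1.92 to 3.16 CPM in the same order. In bulk RNA, fewer cells expressing a gene and less RNA per cell cannot be told apart. Library 3 of the doxycycline plus dTAG-13 group stood farthest from its companions, with a chi-square per gene of 8.28 and 8.65 against 2.72 between the other 2.

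Ifit1, the family member best known for binding RNA with an incompletely methylated cap, had normalised levels of 9.44, 7.86 and 8.41 CPM in the 3 control libraries and 16.2, 17.1 and 16.6 CPM with doxycycline. It had 7.29, 7.59 and 8.78 CPM with dTAG-13 alone and 21.2, 20.1 and 20.4 CPM with both agents. The 6 libraries with doxycycline were all above the 6 without it, and the groups with and without dTAG-13 overlapped only where doxycycline was absent. With dTAG-13 in both groups, doxycycline raised Ifit1 2.61-fold (log2 1.38, SE 0.08, edgeR adjusted p = 1.77e-17). Without dTAG-13 the log2 difference was 0.96 (SE 0.08), a ratio of 1.94.

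Ifit3 encodes a protein that binds and stabilises IFIT1 in human cells. Its levels were 5.84, 5.80 and 4.72 CPM in control and 13.7, 14.1 and 14.5 CPM with doxycycline. They were 5.24, 5.25 and 7.03 CPM with dTAG-13 and 15.8, 15.6 and 15.6 CPM with both. The doxycycline libraries were again all above the rest, by a wide gap between 7.03 and 13.7 CPM. In the presence of dTAG-13, doxycycline raised Ifit3 2.69-fold (log2 1.43, SE 0.09, edgeR adjusted p = 1.49e-15). Without dTAG-13 the ratio was 2.58.

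Ifit3b is a near copy of Ifit3. Its levels were 1.79, 1.39 and 2.24 CPM in control and 3.27, 3.97 and 3.45 CPM with doxycycline. They were 1.19, 1.90 and 1.27 CPM with dTAG-13 and 4.77, 4.83 and 4.44 CPM with both agents. Here too no library without doxycycline reached one with it. In the presence of dTAG-13, doxycycline raised Ifit3b 3.2-fold (log2 1.68, SE 0.18, edgeR adjusted p = 7.86e-10), and without it the ratio was 1.98.

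The Ifit3 and Ifit3b values are uncertain as separate numbers. Their annotated coding sequences, 1209 bases each, are identical at 1198 positions (99.1%). Of all 50-base windows in the annotated exons, 51.2% of those in Ifit3 also occur in Ifit3b. The handling of reads that match both genes is not given in the sources used here. Ifit3b took 15.4% to 32.1% of the pair's reads in the 12 libraries, and the exact 95% binomial intervals of these extremes were 11% to 20.5% in dTAG-13 library 3 and 25.7% to 39.2% in control library 3. Counted as 1 gene, the pair rose with doxycycline in the presence of dTAG-13 by a log2 of 1.48 (SE 0.08, edgeR adjusted p = 2.92e-18). The intervals cover counting error only.

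Ifit2, whose protein has been linked to cell death as well as to virus restriction, was the most abundant member and did not follow the other IFIT genes. Its levels were 44.1, 42.4 and 45.7 CPM in control and 45.7, 43.7 and 41.8 CPM with doxycycline. They were 41.9, 42.0 and 40.5 CPM with dTAG-13 and 40.6, 41.4 and 46.3 CPM with both. The groups with and without doxycycline overlapped in both settings. The log2 difference for doxycycline was 0.05 in the presence of dTAG-13 (95% interval -0.05 to 0.15, edgeR adjusted p = 0.545) and -0.01 without it (SE 0.05). In the presence of dTAG-13 the interval of Ifit1 was 1.22 to 1.54 and that of Ifit3 1.24 to 1.62. The difference between genes was not itself tested.

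Mx1 was counted from few reads, 9, 16 and 17 in the control libraries and 46, 41 and 38 with doxycycline. The counts were 29, 16 and 23 with dTAG-13 and 37, 44 and 57 with both. As levels this was 0.282, 0.515 and 0.603 CPM in control, 1.49, 1.37 and 1.31 with doxycycline, 0.932, 0.515 and 0.792 with dTAG-13 and 1.65, 1.73 and 1.82 with both. All 6 doxycycline libraries were above the other 6, although sampling of so few reads widens every interval. In the presence of dTAG-13, doxycycline raised Mx1 2.32-fold (log2 1.22, SE 0.26, edgeR adjusted p = 0.000459), and without it the ratio was 2.99.

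Mx2 had 17, 14 and 9 reads in control, 29, 22 and 20 with doxycycline, 33, 20 and 22 with dTAG-13 and 32, 38 and 44 with both. Its levels were 0.533, 0.451 and 0.319 CPM in control and 0.939, 0.734 and 0.690 CPM with doxycycline. They were 1.06, 0.644 and 0.758 CPM with dTAG-13 and 1.43, 1.49 and 1.40 CPM with both. Mx2 thus differed from Ifit1, Ifit3, Ifit3b and Mx1 in that dTAG-13 alone and doxycycline alone gave overlapping values. As for those genes, the libraries with both agents were highest. In the presence of dTAG-13, doxycycline raised it 1.75-fold (log2 0.81, SE 0.26, edgeR adjusted p = 0.0241). That call was lost with DESeq2 (adjusted p = 0.0568) and in edgeR on leaving out any library of the doxycycline plus dTAG-13 group (adjusted p = 0.0541, 0.0635 and 0.0538 without libraries 1, 2 and 3) or library 2 or 3 of the dTAG-13 group (0.125 and 0.08).

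**Figure D2:**
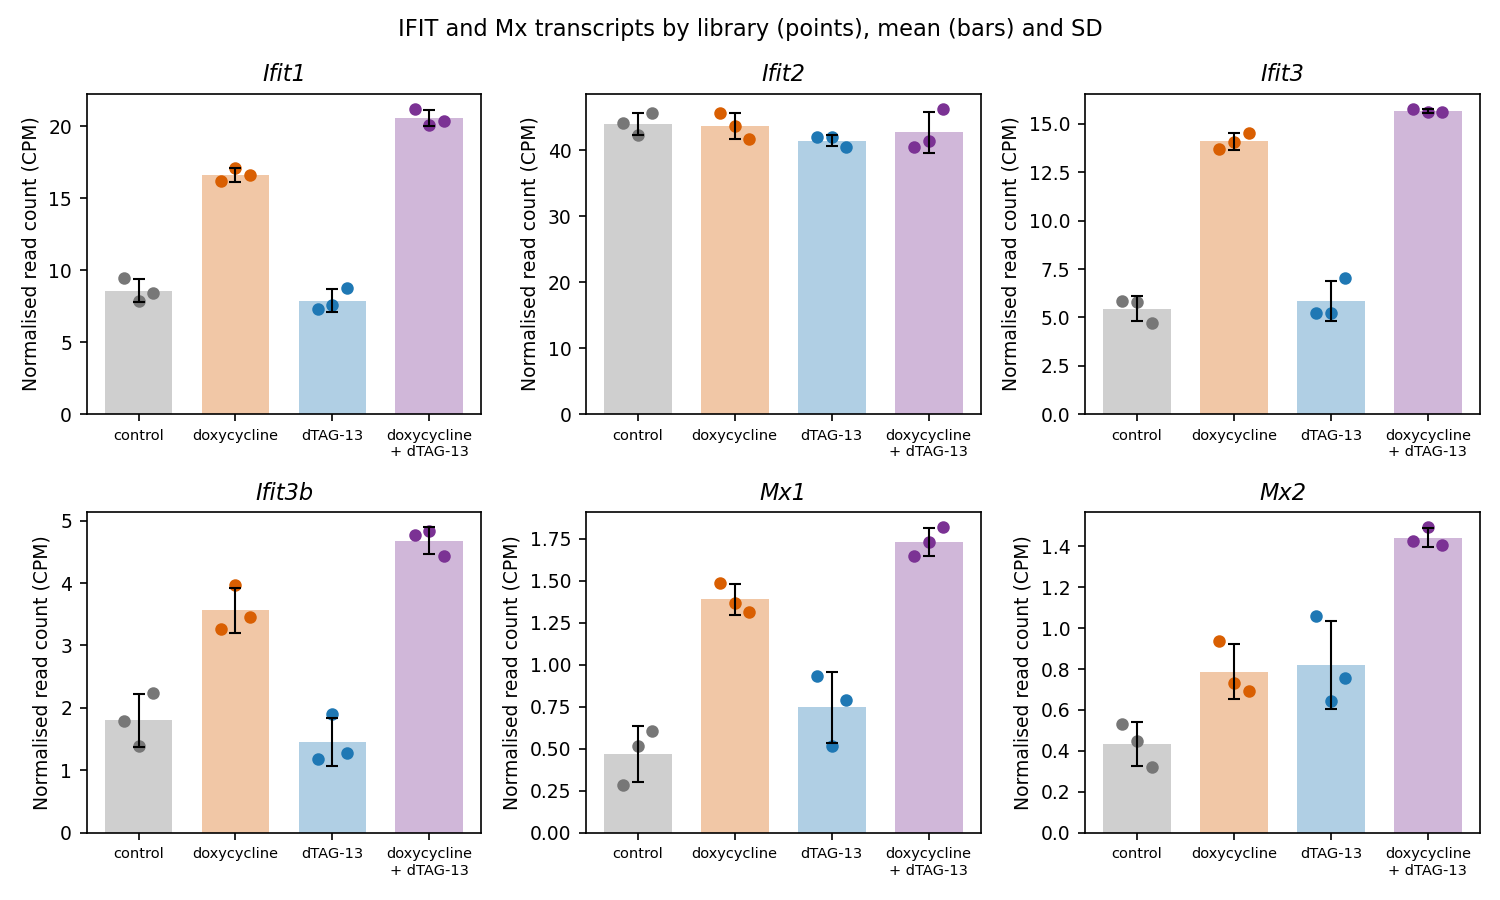
Normalised read count (CPM, y axis, starting at 0 with its own scale in each panel) of the 6 genes in the 4 groups; points are libraries, bars are means and whiskers are SD over 3 libraries. For Ifit1, Ifit3, Ifit3b and Mx1 the orange and purple points all lie above the grey and blue ones; for Mx2 the orange points lie above the grey and the purple above the blue; Ifit2 lies between 40.5 and 46.3 CPM throughout.

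In the comparison of doxycycline plus dTAG-13 with dTAG-13, 5 of the 6 genes were called higher in edgeR (adjusted p under 0.05) and none lower. Its groups share no library with doxycycline against control, but the spread was estimated over all 12 libraries. Whether the earlier results behind the choice of genes covered this comparison is not stated in the sources used here. The count is therefore no independent evidence of a direction. Of all genes tested, 10.7% were called higher, 9.64% lower and 20.4% in either direction. The median log2 difference was 1.3 over the 6 genes and 0.00 over all 12910. Between doxycycline and control, the groups did not overlap for 5 of the 6 genes, all higher with doxycycline. There, 19.8% of all tested genes were higher without overlap, and 33.5% were called, 14.8% higher. That count is given as a description, since the contrast was behind the choice of genes. The split of calls over the whole table depends on scaling: with library size in place of trimmed-mean factors, 30.3% of the calls between doxycycline plus dTAG-13 and dTAG-13 were higher, against 52.7%. Between doxycycline and control, 61.3% of the calls were higher with library size only, against 44.3%. The 5 members kept their direction under both scalings.

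The difference between these doxycycline effects, with dTAG-13 minus without, had log2 estimates of 0.43 (SE 0.11) for Ifit1, 0.69 (SE 0.25) for Ifit3b and 0.06 (SE 0.14) for Ifit3. For Ifit3 and Ifit3b counted as 1 gene it was 0.20 (SE 0.12). It was for Ifit2 0.06 (SE 0.07), for Mx1 -0.36 (SE 0.40) and for Mx2 -0.04 (SE 0.39). The 6 values had no common sign, with 4 positive and a median of 0.06. With library size only as the scaling that median was -0.01. Of all tested genes, 22.9% were called in this interaction, 13.2% higher and 9.64% lower. No p is given for the members, since the interaction holds the contrast behind their choice.

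**Figure D3:**
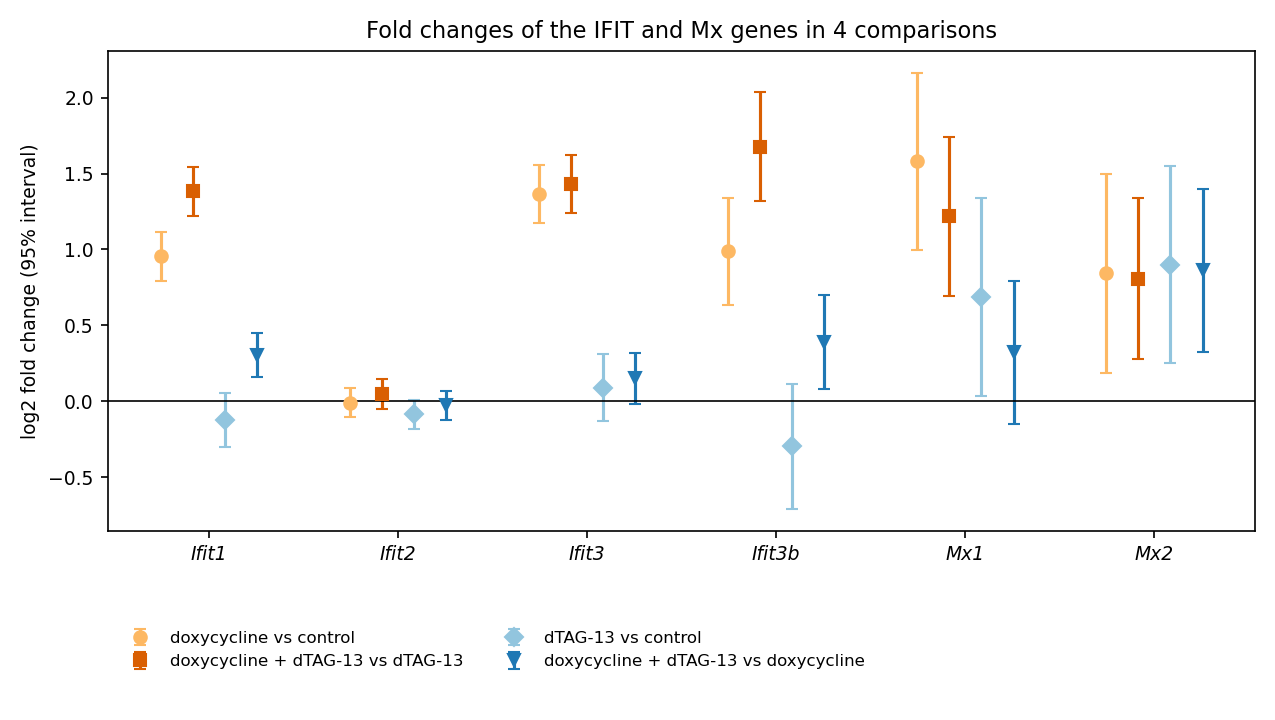
The log2 fold change (y axis) of each gene (x axis) in 4 comparisons; symbols are edgeR estimates and whiskers are 95% intervals. The light and dark orange symbols, doxycycline without and with dTAG-13, lie above 0 for 5 genes and at 0 for Ifit2; the light and dark blue symbols, dTAG-13 without and with doxycycline, range from -0.30 for Ifit3b without doxycycline to 0.90 for Mx2. The whiskers of doxycycline against control describe precision and are no test.

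The 3 h of dTAG-13 were compared in the absence and in the presence of doxycycline. In both settings the groups also differed in the listed time of interferon-gamma, and in the second in that of doxycycline. These differences and dTAG-13 cannot be told apart. Without doxycycline, 1 of the 6 genes was called, Mx2, while 62.1% of all tested genes were called, 30.0% higher and 32.1% lower, and for 65.5% the groups did not overlap. With library size only, 62.8% of those calls were higher, against 48.3%. Mx2 was 1.87-fold higher with dTAG-13 than in control (log2 0.90, SE 0.32, edgeR adjusted p = 0.0142). The call was lost without control library 3 (log2 0.73, adjusted p = 0.0744) or without dTAG-13 library 1 (log2 0.66, adjusted p = 0.118), both in edgeR. Mx1 had a log2 difference of 0.69 (SE 0.32, edgeR adjusted p = 0.0632), with overlapping groups. In edgeR it passed without control library 3 (adjusted p = 0.0381), without dTAG-13 library 2 (0.024) and with library size only (0.0335).

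The IFIT genes were not called between dTAG-13 and control. The log2 differences were -0.12 (SE 0.09) for Ifit1, 0.09 (SE 0.11) for Ifit3 and -0.30 (SE 0.20) for Ifit3b, with edgeR adjusted p of 0.228, 0.5 and 0.205. Ifit3b was called lower without dTAG-13 library 2 (log2 -0.55, edgeR adjusted p = 0.0371). For Ifit2 the 3 dTAG-13 libraries were all below the 3 controls, at a log2 difference of -0.09 (SE 0.05, edgeR adjusted p = 0.119). A correction for transcript length moved Ifit1 to -0.23 and Ifit2 to -0.13, each past the threshold in edgeR (adjusted p = 0.0226 and 0.0179).

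With doxycycline present, 3 of the 6 genes were called higher after dTAG-13: Ifit1, Ifit3b and Mx2. Of all tested genes 64.1% were called, with 30.7% of the table called higher, and for 67.2% the groups did not overlap. Ifit1 rose 1.24-fold (log2 0.30, SE 0.07, edgeR adjusted p = 0.000277). Mx2 rose 1.82-fold (log2 0.86, SE 0.27, edgeR adjusted p = 0.00452), a call kept in all 21 alternatives run (adjusted p 0.0029 to 0.0229). Ifit3b rose 1.31-fold (log2 0.39, SE 0.15, edgeR adjusted p = 0.0245), but its call was lost with the length correction (log2 0.21, adjusted p = 0.234) and in edgeR without doxycycline library 1 (adjusted p = 0.114) or 3 (0.0683), or without doxycycline plus dTAG-13 library 1 (0.0587) or 2 (0.0659). Ifit3 and Mx1 had all 3 libraries with both agents above all 3 with doxycycline, at log2 differences of 0.15 (SE 0.08) and 0.32 (SE 0.23), and edgeR adjusted p of 0.109 and 0.228. For Ifit3 the p was 0.0429 when only the groups compared entered the edgeR fit. Over its 20 alternatives the log2 difference of Ifit3 ranged from -0.057 to 0.173, so its sign depended on the processing. On leaving out single libraries it ranged from 0.117 to 0.173. Ifit2 had a log2 difference of -0.03 (SE 0.05, edgeR adjusted p = 0.63). In this comparison the leukocyte marker Cd68 was called higher as well (log2 0.79, SE 0.23, edgeR adjusted p = 0.00262) and the endothelial marker Pecam1 lower (log2 -0.39, SE 0.18, edgeR adjusted p = 0.0492), and their part in the member values was not tested. The comparisons with dTAG-13 alone and with doxycycline alone share libraries with those above, so their values are set side by side only.

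Per kilobase of annotated exon, Ifit2 was the highest member in every group, at 11.2 ± 0.42 CPM per kb in control (SD, n = 3). Ifit1 and Ifit3 followed at 3.23 ± 0.30 and 3.12 ± 0.36 CPM per kb, which did not differ beyond their spread, then Ifit3b at 0.901 ± 0.21. Mx1 and Mx2 were lowest in control, at 0.123 ± 0.044 and 0.120 ± 0.030 CPM per kb, and did not differ beyond their spread either. Ifit2 stood at percentile 60.9 of the 12450 tested genes with a known length in control, Ifit1 at 33.2 and Mx2 at 4.2. With doxycycline the libraries of the neighbours separated. Ifit3 stood at 8.08 ± 0.24 CPM per kb, above Ifit1 at 6.27 ± 0.18, and Mx1 at 0.367 ± 0.024, above Mx2 at 0.218 ± 0.037. The handling of reads that match both Ifit3 and Ifit3b is not given, so the place of Ifit3 against Ifit1 is uncertain in every group. With both agents Ifit3 was at 8.97 ± 0.058 and Ifit1 at 7.75 ± 0.21 CPM per kb, while Ifit2 was at 10.9. With dTAG-13 alone the values of Ifit3 (3.34 ± 0.59) and Ifit1 (2.97 ± 0.30) overlapped again, as did those of Mx2 (0.227 ± 0.060) and Mx1 (0.197 ± 0.056).

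Ifit2 supplied most of the family's reads without doxycycline and less of them with it. It gave 72.4% of the 5533 IFIT and Mx reads in control and 71.3% of the 5310 with dTAG-13. With doxycycline its share was 54.5% of 7210 reads, and with both agents 49.5% of 6901. Ifit1 went from 14.1% of the family's reads in control to 20.7% with doxycycline, and Ifit3 from 9.02% to 17.6%. The shares follow from the counts above and are no separate measurement.

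**Figure D4:**
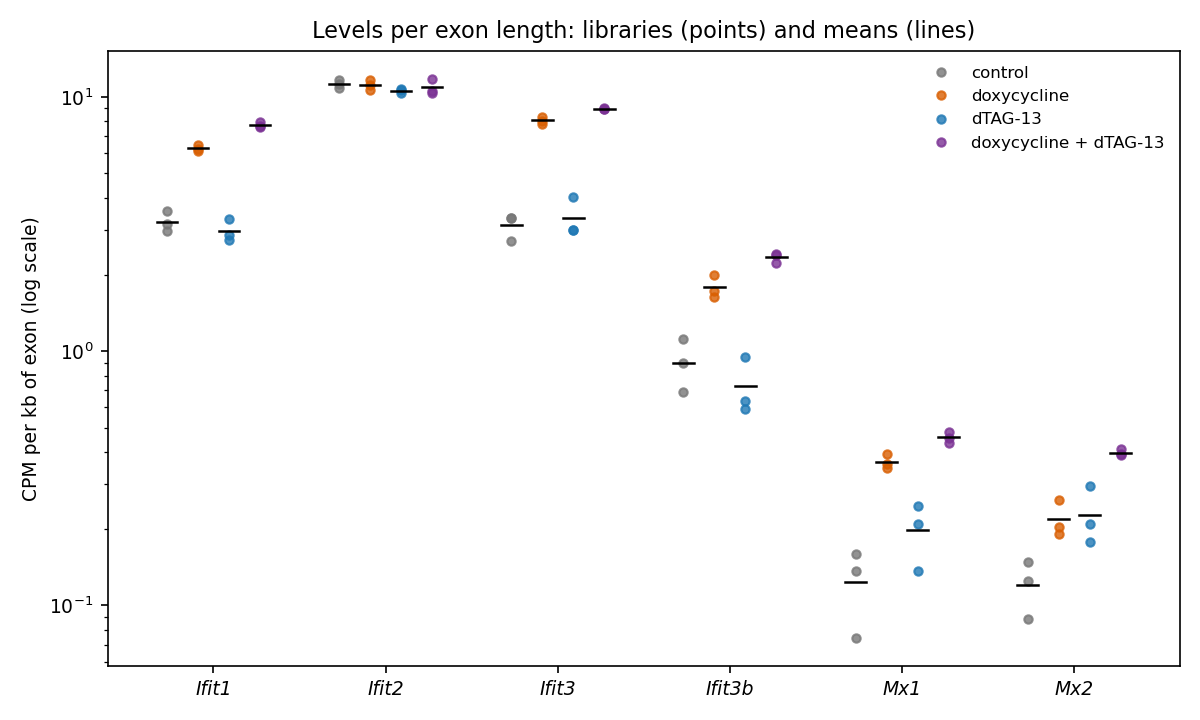
Level per annotated exon length (CPM per kb, logarithmic y axis) of the 6 genes, ordered by gene on the x axis and by group in colour; points are libraries and lines are means. The members span from 0.120 CPM per kb for Mx2 to 11.2 for Ifit2 in control, and Ifit3 and Ifit1 come close to Ifit2 in the groups with doxycycline.

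Across the 12 libraries, the log2 levels of Ifit1 and Ifit3 had a Pearson r of 0.98, Ifit1 and Ifit3b 0.95, Mx1 and Ifit3 0.88 and Mx1 and Mx2 0.78. The largest r of Ifit2 with any other member was 0.19, with Ifit3b. The 12 points fall into the 4 treatment groups and share their libraries' depth, so these values only restate the group pattern. Among 11552 other genes whose mean level reached 1 CPM, the 5 whose pattern was most like the mean of the standardised members were Parp12 (r = 0.986), Cxcl10 (0.979), Cmpk2 (0.972), Ifi44 (0.97) and Ifi204 (0.969). Cxcl10 encodes a chemokine, and Ifi204 a member of a family of nucleic acid sensors.

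The neighbouring paralogs Ifit1bl1 and Ifit1bl2 lie on the opposite strand within the same cluster. Ifit1bl2 had 13 reads over the 3 control libraries, 24 with doxycycline, 14 with dTAG-13 and 28 with both. In the presence of dTAG-13 its log2 difference for doxycycline was 1.18 (SE 0.54, edgeR adjusted p = 0.124), which did not pass. Its first annotated start and that of Ifit1 point away from each other, and the Ifit1 stretch printed above lies before both. Ifit1bl1 had 4, 3, 1 and 8 reads in the same order and was not tested. The RefSeq span of Ifit1bl1 overlaps Ifit1 and Ifit3b, with no shared exon bases in GENCODE. Whether reads were counted by strand is not given in the sources used here.

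Transcripts of the interferons themselves were near the limit of these libraries. Ifnb1, the gene of interferon-beta, had 0 reads in all 6 libraries without doxycycline, 2, 0 and 1 with doxycycline and 2, 2 and 2 with both agents. As a share of all reads this was 0.0331 CPM (exact Poisson 95% interval 0.00684 to 0.0969) with doxycycline and 0.0763 (0.028 to 0.166) with both. A count of 0 in the control and dTAG-13 groups allows up to 0.0319 and 0.0339 CPM. Ifna7 had 4 reads, all with both agents. Ifnab had 1 read with both agents and 2 with dTAG-13, Ifna13 1 with dTAG-13, Ifne 2 in control and Ifnk 1 with doxycycline. Ifnz, the only one of the 21 interferon genes listed that passed the filter, had 34 reads in control, 21 with doxycycline, 23 with dTAG-13 and 22 with both. It was not called between doxycycline plus dTAG-13 and dTAG-13 (log2 0.15, SE 0.49, edgeR adjusted p = 0.879). The part of any interferon transcript in the IFIT and Mx values was not tested.

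Of 15 genes for interferon receptors, kinases, transcription factors and feedback inhibitors, 8 were called higher and none lower with doxycycline in the presence of dTAG-13, with a median log2 difference of 0.11. Irf7, a transcription factor that amplifies type I interferon responses, rose most, by a log2 of 1.01 (SE 0.09, edgeR adjusted p = 1.86e-11), from 7.97 ± 1.05 to 16.1 ± 1.64 CPM (SD, n = 3). Usp18, an inhibitor of type I interferon signalling that removes ISG15 from proteins, rose by 0.90 (SE 0.14, edgeR adjusted p = 2.91e-06). Stat2 and Irf9, which encode ISGF3 subunits, rose by 0.41 (SE 0.04) and 0.19 (SE 0.04), with edgeR adjusted p of 8.26e-12 and 0.000155. Irf1 rose by 0.07 (SE 0.02, edgeR adjusted p = 0.00759), a call lost with library size only (adjusted p = 0.175) and without dTAG-13 library 2 (0.0551). The receptor genes Ifnar1 and Ifnar2 had log2 differences of -0.01 (SE 0.04) and 0.11 (SE 0.04) and were not called (edgeR adjusted p = 0.938 and 0.0932). Between doxycycline and control, 9 of the 15 genes were called higher and 1 lower. Of all tested genes, 14.8% were called higher and 18.7% lower there, and 10.7% and 9.64% with dTAG-13 present.

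Of 26 other antiviral interferon-induced genes tested, 25 were called higher and none lower with doxycycline in the presence of dTAG-13, with a median log2 difference of 0.57. Oas2, a synthetase of 2'-5'-linked oligoadenylates that activate RNase L, rose by 1.45 (SE 0.17, edgeR adjusted p = 1.97e-08). Ifi44 rose by 1.03 (SE 0.08, edgeR adjusted p = 5.79e-14). Rsad2, which encodes viperin, rose by 0.78 (SE 0.06) and Isg15, a ubiquitin-like modifier, by 0.78 (SE 0.04), with edgeR adjusted p of 2.91e-14 and 5.68e-18. Between doxycycline and control, 21 of the 26 were called higher and none lower, with a median of 0.40. The share of all tested genes called higher was 14.8% there and 10.7% with dTAG-13 present. Of 20 genes of this list with a promoter window, 7 (35%) held the response element core and 4 (20%) the gamma-activated site. Of all tested genes with a window, 3.12% held the first and 7.1% the second.

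Among 14 interferon-gamma targets tested, 11 were called higher and none lower with doxycycline in the presence of dTAG-13. Their median log2 difference was 0.29. Of all tested genes 10.7% were called higher in that comparison. Gbp5, a guanylate-binding protein, rose by 0.79 (SE 0.06, edgeR adjusted p = 4.96e-13) and Cxcl10 by 0.75 (SE 0.03, edgeR adjusted p = 3.61e-21). Of the 13 with a promoter window, 8 (61.5%) held the response element core and 5 (38.5%) the gamma-activated site. The shares of all tested genes with a window were 3.12% and 7.1%. The lists of signalling, antiviral and interferon-gamma target genes were drawn up with earlier results of these data known. Their counts, without and with dTAG-13, are no independent evidence of a direction.

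**Figure D5:**
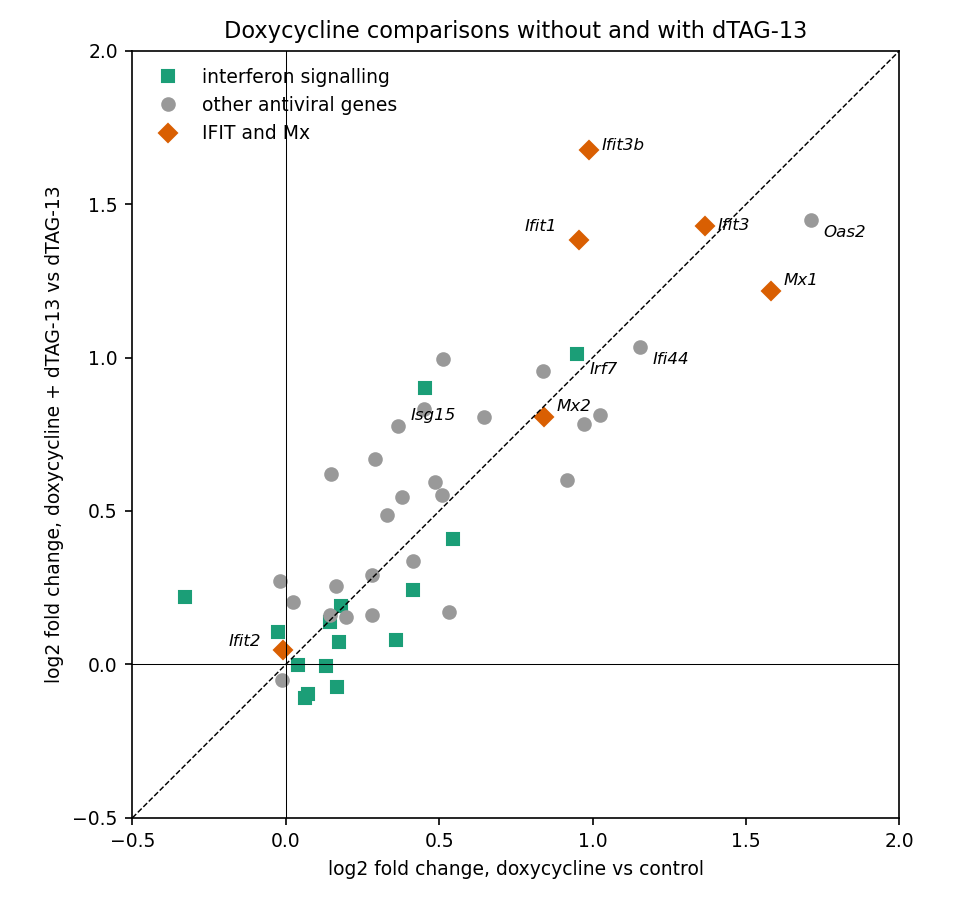
The log2 fold change for doxycycline without dTAG-13 (x axis) and with dTAG-13 (y axis), 1 point per gene; orange diamonds are the 6 IFIT and Mx genes, green squares interferon signalling genes, grey circles other antiviral genes, and the dashed line marks equal values. The 2 axes share no library; Ifit2 lies at the origin, and the other 5 members lie between 0.81 and 1.68 on the y axis.

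After dTAG-13, calls in the same lists went in both directions, as they did over the whole table. Between dTAG-13 and control, 5 of the 15 signalling genes were called higher and 6 lower, and 9 of the 26 other antiviral genes higher and 8 lower, with medians of -0.04 and 0.01. Over all tested genes 30.0% were called higher and 32.1% lower in that comparison. Irf1 rose by a log2 of 0.20 (SE 0.02, edgeR adjusted p = 2.39e-11), and Socs3, an inhibitor of cytokine signalling, fell by 0.42 (SE 0.06, edgeR adjusted p = 5.33e-08). Parp14, an ADP-ribosyltransferase, fell by 0.61 (SE 0.04, edgeR adjusted p = 1.3e-18), whereas Oas2 rose by the same size, 0.61 (SE 0.22, edgeR adjusted p = 0.0149), a call lost without dTAG-13 library 3 (adjusted p = 0.0553). Isg15 rose by 0.18 (SE 0.05, edgeR adjusted p = 0.000652), and turned to -0.07 with the length correction. With doxycycline present, Isg15 rose by 0.59 after dTAG-13 (SE 0.04, edgeR adjusted p = 1.17e-15), and Oas3 fell by 0.63 (SE 0.07, edgeR adjusted p = 1.26e-10). Jak1, a kinase of both interferon receptors, fell by 0.43 (SE 0.02, edgeR adjusted p = 6.4e-19). The rise of Isg15 with doxycycline present kept its call in all 20 alternatives, but its size ranged from 0.193 to 0.624. On leaving out single libraries it ranged from 0.563 to 0.624.

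Genes that share a biochemical setting with the 2 families were compared too. Of 8 genes of cap methylation and cap or eIF3 binding, 1 was called higher and 1 lower with doxycycline in the presence of dTAG-13. These were Eif3e at a log2 of 0.09 and Cmtr2 at -0.16. Over all tested genes 10.7% were called higher and 9.64% lower, so these counts are near the share of the whole table. Cmtr1, the methyltransferase that makes the cap mark which shields RNA from IFIT1, had 0.01 (SE 0.03, edgeR adjusted p = 0.875). The Eif3e call was lost with library size only (edgeR adjusted p = 0.0631). The Cmtr2 call was lost with DESeq2 (adjusted p = 0.0819), and in edgeR with no filter on low counts (0.0529), with only the groups compared (0.0505), without library 1 or 2 of the doxycycline plus dTAG-13 group (0.147 and 0.0824) or library 1 or 3 of the dTAG-13 group (0.182 and 0.176). Of 10 genes of the dynamin superfamily, 1 was called higher, Dnm1, by 0.21 (SE 0.04, edgeR adjusted p = 0.000124), and none lower. The count called higher is again near the share of the whole table. Dnm1l and Opa1, which drive mitochondrial fission and fusion, had -0.05 (SE 0.03) and -0.01 (SE 0.03) and were not called (edgeR adjusted p = 0.203 and 0.882). After dTAG-13 without doxycycline, 7 of the 10 dynamin genes were called lower and 1 higher, in a comparison where 32.1% of all tested genes were called lower and 30.0% higher. Cmtr1 (-0.15) and Opa1 (-0.11) were among the genes called lower there, and both turned to 0.01 with the length correction.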

How the data were processed

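Poly(A) RNA from 12 libraries was sequenced, per the labels. The deposited table holds raw counts of reads for each Entrez gene ID, which the authors did not normalize. Subread made the alignments, per the file headers. The genome mm10, bcl2fastq 2.17 and featureCounts are named in the submitters' processing notes. Not given in the sources used here: the aligner's version, the annotation, the strand setting and the treatment of reads with several matches. Symbols, spans and promoter windows came from RefSeq (GRCm38.p6), and exons and coding sequences from GENCODE M21.

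Genes were tested in R 4.3.3 with edgeR 4.0.16: filterByExpr, trimmed-mean (TMM) scaling, 1 mean per group over all 12 libraries, the robust quasi-likelihood F test (two-sided) and Benjamini-Hochberg adjustment over 12910 genes, with calls at an adjusted p under 0.05. CPM are on the scaled library sizes, and log2 levels used a prior count of 2. Exact binomial and Poisson intervals are at 95%, and a count of 0 was given the limit of 3 counts. Tables and figures used Python 3.11.15, pandas 2.3.3 and matplotlib 3.10.9, and alignments Biopython 1.88. The code was tested on simulated data. The members and lists were chosen with earlier results of these data known. Of the lists, 27 of 28 antiviral and 2 of 3 paralog names matched. A signalling gene of the lists is not reported here.

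The text names every member, every paralog or interferon gene with a read, 12 pathway genes throughout and, per list and comparison, the 2 called genes with the largest change and a mean of at least 1 CPM (not all are described). Replicate numbers did not pair libraries: the deviations of libraries with the same number correlated at -0.021 to 0.08. Alternatives were RLE factors, library size only, DESeq2 1.42.0, no filter, 1 CPM in 3 libraries, only the groups compared, a replicate block, a transcript length correction (splines with 5 degrees of freedom; 96.4% of tested genes had a length), Ifit3 and Ifit3b summed, and leaving out each library.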

Additional observations from a re-analysis of the deposited data

Results flagged for a closer look

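Of 75 pathway genes tested outside the IFIT and Mx families, 26 (34.7%) were called in edgeR's interaction test, in which the doxycycline effect with dTAG-13 is compared with that without it, against 22.9% of all tested genes. The 10 that the naming rule picks are given here. Their lists were drawn up with earlier results of these data known, and the interaction contains doxycycline against control. The count and the p-values below are therefore descriptions and no independent evidence. The difference, with dTAG-13 minus without, was positive for Socs3 at a log2 of 0.55 (adjusted p = 3.94e-06), Rtp4 at 0.47 (7.56e-07), Isg15 at 0.41 (3.58e-06), Ramac at 0.27 (0.0224), Irgm1 at 0.24 (7.17e-08) and Eif3c at 0.13 (0.00102). It was negative for Gbp5 at -0.49 (adjusted p = 4.94e-05), Jak1 at -0.28 (6.58e-08), Stat2 at -0.14 (0.0469) and Irf1 at -0.1 (0.0101), all by edgeR. Socs3 was lower with doxycycline than in control (log2 -0.33) and higher with doxycycline plus dTAG-13 than with dTAG-13 (0.22). The Stat2 difference missed the threshold with RLE factors, with DESeq2, without a filter, with the replicate block and with the length correction, and on leaving out 10 of the 12 libraries, 1 at a time. The Ramac call was lost in edgeR with library size only (adjusted p = 0.0937), with the length correction (0.0665) and without control library 2, doxycycline library 1, doxycycline plus dTAG-13 library 1 or 3 or dTAG-13 library 2 (0.051 to 0.0982). The Eif3c call was lost with library size only (edgeR adjusted p = 0.142) and the Irf1 call with the length correction (0.0555).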

How the results depend on the processing

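No member reversed a called direction: of 372 member values in the 3 tested comparisons under the alternatives, 352 kept their side of the threshold, 7 gained a call and 13 lost one. The number of members called between dTAG-13 and control was 1, where 62.1% of all tested genes were called. With library size only it was 2, both higher, where 8371 of 12910 genes were called. With the length correction it was 3, 1 higher and 2 lower, where 7524 of 12450 genes were called. On leaving out single libraries it ranged from 0 (without dTAG-13 library 1) to 3 (without dTAG-13 library 2). The latter 3 were 2 higher and 1 lower, and 7514 of 13064 genes were called there. The median member interaction turned from 0.06 to -0.011 with library size only. With the length correction 3 interferon signalling genes were called in the interaction, against 6. Of all tested genes, 2869 of 12450 were called there, against 2950 of 12910. Between dTAG-13 and control, library size only moved the median of all genes from 0.019 to 0.11, and the length correction moved Isg15 to -0.073, Cmtr1 to 0.01 and Opa1 to 0.014. Between doxycycline plus dTAG-13 and doxycycline it moved Cmtr1 to 0.113, from -0.13. The cause was not tested. In the interaction, 25.2% of all calls were higher with library size only and 69.6% with the length correction, against 57.8%; between doxycycline and control the length correction gave 34.4%, against 44.3%.

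The replicate number was also entered as a block, the libraries sharing only a number. With it, 5, 1 and 3 members were called in the 3 tested comparisons, as without the block. Of all 12910 genes tested, 2490, 7938 and 8205 were called with the block, in the same order. The median member difference between doxycycline and control was 0.971 with the block, against 0.972. The Mx genes had 9 to 57 reads per library, which limits their precision. None of the tests used independent cultures.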
